A study of Homo sapiens with 16 samples.

Results

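HCC1806 monolayers were set against ZR-75-30 monolayers, the pair of lines that share a growth medium but differ in breast cancer subtype. The comparison rests on 4 of the 16 RNA-seq libraries of the study: HCC1806 replicates 1 and 2 and ZR-75-30 replicates 1 and 2, chosen by cell line and culture and not by any measured value. The study sequenced poly(A)-selected RNA of 4 established human breast cancer cell lines as 150 bp read pairs. HCC1806 and BT474 were sampled as monolayers and spheroids, CAL148 and ZR-75-30 as monolayers. HCC1806 and ZR-75-30 were grown in RPMI 1640, and CAL148 and BT474 in DMEM, in each case with 10% fetal bovine serum and no further treatment, gene change or transgene in the labels. Sample titles set the groups here, since the treatment label reads monolayer for every library of the series. The labels do not say whether the 2 libraries of a line came from separate cultures, so p-values measure only the spread between the libraries fitted. That spread was estimated in 1 fit of all 8 monolayer libraries, those of CAL148 and BT474 included. Each subtype is here represented by 1 line, and effects of subtype cannot be told apart from other differences between the lines.

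By general knowledge of the lines, not by a label, HCC1806 is a triple-negative line derived from a squamous carcinoma of the breast, and ZR-75-30 is an ERBB2-amplified, hormone receptor-positive line from a ductal carcinoma. The mammary epithelium has an inner luminal layer, kept by the transcription factors FOXA1, GATA3 and the hormone receptors and marked by simple keratins, and an outer basal layer, kept by the p53 relative TP63 and marked by keratins 5 and 14. ERBB2 is a receptor tyrosine kinase whose gene, on the long arm of chromosome 17, is amplified together with its neighbours in a subset of breast tumours. In squamous epithelia TP63 and the stratified keratins mark the dividing basal cells, and desmosomal proteins, small proline-rich proteins and serine protease inhibitors appear as the cells mature.

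Among the genes most clearly separated between the lines were the basal keratin gene KRT5, on the HCC1806 side, and the secretoglobin genes SCGB2A2 (mammaglobin-A) and SCGB1D2 (lipophilin B), on the ZR-75-30 side, and the bases before their start sites are shown for that reason. Each stretch is the 250 bases upstream of the RefSeq start, 5′ to 3′ on the gene's own strand, from RefSeq on GRCh38.p14. KRT5 lies on the minus strand (chr12:52520395-52520644), and SCGB2A2 (chr11:62269908-62270157) and SCGB1D2 (chr11:62241989-62242238) lie near each other on the plus strand. Capitals mark matches, on either strand, to the AP-1 letters TGANTCA, the forkhead letters TGTTTNC and the AP-2 letters GCCNNNGGC.
KRT5: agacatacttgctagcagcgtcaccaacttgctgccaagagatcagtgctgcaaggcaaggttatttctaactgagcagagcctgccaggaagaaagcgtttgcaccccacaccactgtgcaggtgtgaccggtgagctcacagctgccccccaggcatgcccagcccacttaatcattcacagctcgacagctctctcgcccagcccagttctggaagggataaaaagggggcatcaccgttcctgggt
SCGB2A2: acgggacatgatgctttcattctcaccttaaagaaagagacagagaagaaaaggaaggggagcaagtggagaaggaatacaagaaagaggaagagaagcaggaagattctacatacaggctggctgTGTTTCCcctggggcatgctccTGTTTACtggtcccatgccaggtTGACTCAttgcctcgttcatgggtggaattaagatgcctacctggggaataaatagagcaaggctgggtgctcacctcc
SCGB1D2: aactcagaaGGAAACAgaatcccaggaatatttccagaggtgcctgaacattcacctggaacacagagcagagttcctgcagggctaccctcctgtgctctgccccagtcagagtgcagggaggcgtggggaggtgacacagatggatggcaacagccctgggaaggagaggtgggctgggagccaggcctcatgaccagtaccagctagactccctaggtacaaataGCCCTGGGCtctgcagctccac

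The SCGB2A2 stretch holds forkhead letters 124 and 102 bases and AP-1 letters 79 bases before the start. The SCGB1D2 stretch holds the forkhead letters once, on the minus strand, 241 bases before the start, and the AP-2 letters 22 bases before it. None of these letters, and no TATAAA, occurs in the KRT5 stretch, and TATAAA occurs in neither of the others. Over the 35116 promoters searched in the same way, 15.5% held the forkhead letters, 6.57% the AP-1 letters, 19.8% the AP-2 letters and 10.7% TATAAA. These matches describe letters and not bound sites.

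Libraries differed in a way the groups do not give. Transcripts of the mitochondrial genome made up 17.8% of counts in HCC1806 replicate 1 and 0.768% in its replicate 2, against 1.96% in ZR-75-30 replicate 1 and 20.5% in replicate 2. Library totals were 32390615 and 36218075 counts in HCC1806 and 39882173 and 32027743 counts in ZR-75-30, and 3 counts equal 0.116 and 0.0808 normalised CPM in HCC1806 and 0.0795 and 0.138 in ZR-75-30. Replicates differed with an SD of 1.40 on the log2 scale in HCC1806 and 0.796 in ZR-75-30, against 0.642 in CAL148 and 0.327 in BT474. Because each line has 1 library of high mitochondrial share, a gene was called only where the adjusted p (Benjamini-Hochberg) of edgeR's quasi-likelihood test was under 0.05 and all 4 cross pairs of libraries differed in the same direction. Expression is given in CPM, counts scaled to a common library size, in the order replicate 1 and replicate 2, and differences as log2 fold change ± SE, HCC1806 over ZR-75-30. A gene without a count in one line has no finite fold change, so its fold is a lower bound against a floor of 3 counts over that line's libraries. With 1 to 3 counts the ratio has an exact 95% interval, and these bounds and intervals cover counting error only.

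Epithelial identity was checked against markers. EPCAM, an epithelial adhesion molecule, stood at 321 and 348 CPM in HCC1806 and 290 and 318 CPM in ZR-75-30, and the simple keratin KRT19 at 4083 and 1883 CPM in HCC1806 and 1454 and 2732 CPM in ZR-75-30. The epithelial marker CDH1 was called higher in HCC1806 (131 and 253 CPM, against 7.95 and 9.17 CPM in ZR-75-30, adjusted p = 0.00208). KRT8 (-1.74 ± 0.52, adjusted p = 0.0509) and KRT18 (-1.32 ± 0.54, adjusted p = 0.126) leaned the other way and were not called. Of 12 fibroblast, 12 endothelial and 14 leukocyte markers only 4, 3 and 3 passed the filter on low counts. Their summed levels were 80.2 and 23.6 CPM in HCC1806 against 23.5 and 17.5 CPM in ZR-75-30 for fibroblast markers, at most 9.65 CPM in any of the 4 libraries for endothelial markers and at most 8.80 CPM for leukocyte markers. PDGFRA, DPT, ASPN, CD3D, CD3E, CD2, CD163 and the endothelial cadherin CDH5 had 0 counts in all 4 libraries. THY1 (4.77 and 1.99 CPM in HCC1806 and 0 in both ZR-75-30 libraries, adjusted p = 0.022) and CLDN5 (3.26 and 0.296 CPM in HCC1806 against 0.0265 and 0 CPM in ZR-75-30, adjusted p = 0.0435) were the 2 markers called, both higher in HCC1806. Neither stayed called without 1 of the ZR-75-30 libraries (adjusted p = 0.105 and 0.0868 for THY1, 0.164 and 0.186 for CLDN5, without replicates 1 and 2), and CLDN5 was also lost without HCC1806 replicate 1 (0.128), either BT474 library (0.086 and 0.0858) or either CAL148 library (0.0592 and 0.059). In bulk libraries fewer cells of a type cannot be told apart from less RNA per cell.

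Of 19594 genes tested, 2448 (12.5%) were higher and 1575 (8.04%) lower in HCC1806. Counts for the gene lists below are to be read beside these shares. A gene with 0 counts in 1 line can come out in 1 direction only, and several lists hold such genes. The median log2 fold change over all genes tested was 0.19, and the 4 cross pairs had 1 direction at 53.3% of genes, called or not. The requirement on cross pairs removed no gene that passed the adjusted p. The counts depended on the libraries fitted. They were 575 higher and 665 lower without ZR-75-30 replicate 1, and 638 higher and 692 lower without its replicate 2. Without HCC1806 replicate 1 they were 3142 higher and 2598 lower, and 1529 and 879 without BT474 replicate 1 and 1518 and 876 without BT474 replicate 2. No gene called in both fits changed sign under any of these, and of the 185 named genes that were called, 99 stayed called without each of the 8 monolayer libraries in turn. The text marks which genes held in this way. A fit without 1 library of HCC1806 or ZR-75-30 has no replicate spread for that line. Holding without each library therefore does not show that the replicates of a line agree. A fit of the 4 libraries alone, without CAL148 and BT474, gave 1253 higher and 525 lower genes.

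Keratins of stratified epithelium were among the genes with the widest gap to ZR-75-30 on the HCC1806 side. KRT5 (ENSG00000186081, chromosome 12, 52514575 to 52520687) stood at 1512 and 2942 CPM in HCC1806 and at 0 in both ZR-75-30 libraries, at least 46800-fold higher (adjusted p = 0.00391). Its partner KRT14 (chromosome 17, 41582279 to 41586921) stood at 1854 and 871 CPM in HCC1806 and at 0 in both ZR-75-30 libraries, at least 25300-fold higher (adjusted p = 0.00232). TP63 (chromosome 3, 189631416 to 189897279), which drives the basal programme, stood at 220 and 276 CPM in HCC1806 against 0.106 and 0 CPM in ZR-75-30 (log2 fold change 11.85 ± 0.92, adjusted p = 0.00114). No ZR-75-30 library came near either HCC1806 library at these 3 genes. KRT13, a keratin of non-cornified squamous epithelium, had 1279 and 319 CPM in HCC1806 and 0 and 0.0459 CPM in ZR-75-30, a ratio of 42400 (95% interval 7620 to 1680000, adjusted p = 0.00142). KRT6A, a keratin of activated squamous cells, had 251 and 1850 CPM in HCC1806 and 0 in both ZR-75-30 libraries, at least 23700-fold higher (adjusted p = 0.00308), and may share reads with the near-identical KRT6B.

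The other genes of that group of 12 had mixed functions. CAV1, the coat protein of caveolae, stood at 290 and 1081 CPM in HCC1806 and at 0 in both ZR-75-30 libraries (at least 15000-fold higher, adjusted p = 0.0022). AKR1C2, an aldo-keto reductase that reduces steroids, stood at 708 and 845 CPM in HCC1806 and at 0 in ZR-75-30 (at least 15700-fold, adjusted p = 0.00216). UCHL1, a ubiquitin hydrolase best known from neurons, stood at 805 and 598 CPM in HCC1806 against 1.22 and 1.42 CPM in ZR-75-30 (log2 fold change 9.05 ± 0.67, adjusted p = 0.00113). By the rule for calls HCC1806 was above ZR-75-30 in each of its libraries. The amounts were similar in both at AKR1C2 and UCHL1. The annexin ANXA8 (at least 4010-fold), the mesothelial surface protein gene MSLN (ratio 9640, 95% interval 3300 to 46700) and BCAT1, a cytosolic branched-chain aminotransferase (at least 3270-fold), were also called higher and stayed so without any of the 8 libraries. The desmosomal gene PKP1 (249 and 384 CPM in HCC1806, 0 and 0.0917 CPM in ZR-75-30, adjusted p = 0.0101) was lost without ZR-75-30 replicate 1 (0.0828) or replicate 2 (0.0641).

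Secreted proteins filled most of the opposite end. SCGB2A2, a secretoglobin made by mammary epithelium and used as a breast tumour marker, stood at 0 in both HCC1806 libraries against 11040 and 16350 CPM in ZR-75-30, at least 272000-fold lower (adjusted p = 0.00113). SCGB1D2, its binding partner, had 0.0775 and 0 CPM in HCC1806 against 1305 and 2912 CPM in ZR-75-30 (ratio 1.68e-05, 95% interval 2.03e-06 to 6.07e-05, adjusted p = 0.00113). Per length, in the deposited FPKM values, SCGB2A2 reached 7301 and 11480 and SCGB1D2 2711 and 6423 in ZR-75-30. TFF3, a trefoil peptide of mucus-secreting cells, was at 0 in both HCC1806 libraries against 514 and 1959 CPM in ZR-75-30 (at least 21900-fold lower, adjusted p = 0.00142). HCC1806 was at or near 0 in both libraries at these 3 genes, and ZR-75-30 replicate 2 was above replicate 1.

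IGFBP5, an insulin-like growth factor binding protein, stood at 0.737 and 0.0539 CPM in HCC1806 against 13060 and 8934 CPM in ZR-75-30 (log2 fold change -14.82 ± 1.70, adjusted p = 0.00294). FMOD (fibromodulin), a collagen-binding proteoglycan, stood at 0.310 and 0.162 CPM in HCC1806 against 3965 and 3787 CPM in ZR-75-30 (-14.02 ± 0.81, adjusted p = 0.00113). SPDEF, an ETS factor of secretory luminal cells, stood at 0.155 and 0 CPM in HCC1806 against 544 and 937 CPM in ZR-75-30 (-13.35 ± 1.14, adjusted p = 0.00142). These 3 genes were above 500 CPM in each ZR-75-30 library and below 1 CPM in each HCC1806 library. Others of that group were BPIFB1 (at least 39700-fold lower) and BPIFB2 (at least 9590-fold), of a family of secreted lipid-binding proteins, the lectin gene CLEC3A (at least 16500-fold), SELENBP1 (selenium-binding protein 1, at least 10300-fold) and the lipocalin APOD (ratio 0.000112, 95% interval 1.35e-05 to 0.000404).

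**Figure D1:**
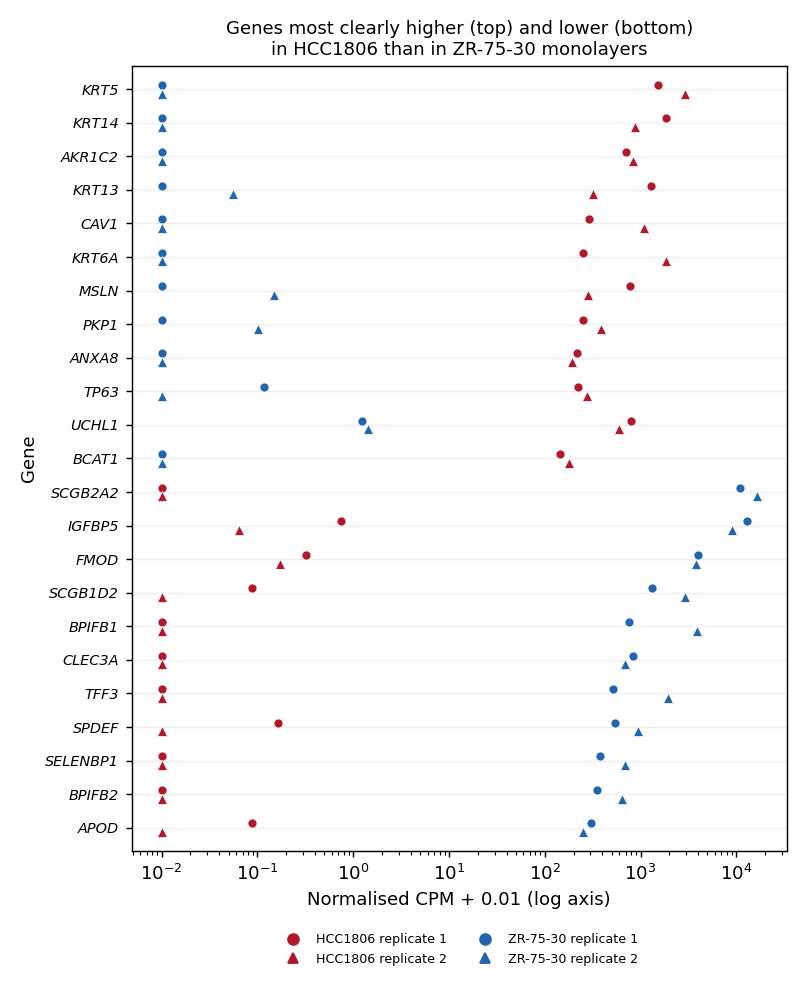
Normalised CPM (plus 0.01, log axis) of the 12 genes most clearly higher and 11 of the 12 most clearly lower in HCC1806, 1 symbol per library. HCC1806 libraries are red and ZR-75-30 libraries blue, circles are replicate 1 and triangles replicate 2, and points at the left edge are libraries with 0 counts. KRT5 sits at 1512 and 2942 CPM in HCC1806 and SCGB2A2 at 11040 and 16350 CPM in ZR-75-30, each with 0 counts in the other line.

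These genes were also looked at in the HCC1806 spheroids, which were not used to choose them. Over the 4 spheroid libraries KRT5 ranged over 2220 to 4910 CPM, TP63 over 465 to 557 CPM, KRT13 over 1908 to 3259 CPM and AKR1C2 over 1743 to 3264 CPM. CAV1 ranged over 124 to 153 CPM and UCHL1 over 170.5 to 236 CPM, both under the lower HCC1806 monolayer library. SCGB2A2, SCGB1D2, CLEC3A, TFF3 and BPIFB2 had 0 counts in each of the 4 spheroid libraries. IGFBP5 did not pass 1.21 CPM and FMOD did not pass 0.180 CPM there.

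Luminal transcription factors and hormone receptors lay on the ZR-75-30 side. Of 24 tested, 12 were lower in HCC1806, 0 were higher and 12 were not called, with a median log2 fold change of -3.45 (-2.54 with genes at 0 counts set at their bound) against 0.19 over all genes. FOXA1, the pioneer factor that opens chromatin for hormone receptors, stood at 13.1 and 30.0 CPM in HCC1806 against 557 and 428 CPM in ZR-75-30 (-4.51 ± 0.52, adjusted p = 0.00294). PRLR, the prolactin receptor, had 0.0775 and 0 CPM in HCC1806 against 314 and 122 CPM in ZR-75-30 (ratio 0.000131, 95% interval 1.58e-05 to 0.000472), and TFAP2B, an AP-2 factor, 0 counts in HCC1806 against 131 and 92.6 CPM in ZR-75-30 (at least 2450-fold lower). That the lines did not overlap at these 3 genes follows from the rule for calls.

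The calls of the steroid receptors ESR1 and PGR depended on single libraries. ESR1, the oestrogen receptor, stood at 1.78 and 13.9 CPM in HCC1806 against 89.1 and 61.6 CPM in ZR-75-30 (-3.26 ± 0.93, adjusted p = 0.0457). That call was lost without either ZR-75-30 library (0.151 without replicate 1, 0.108 without replicate 2), either BT474 library (0.0757 and 0.0771) or either CAL148 library (0.0679 and 0.0678). PGR, the progesterone receptor and itself an oestrogen target, was at 0 in both HCC1806 libraries and at 0.159 and 0.184 CPM in ZR-75-30 (at least 3.52-fold lower, adjusted p = 0.0345), lost without either library of either line (0.0574 to 0.12). These PGR values of ZR-75-30 lie near its floors of 3 counts (0.0795 and 0.138 CPM), so PGR was scarce in both lines. In BT474 monolayers PGR stood at 327 and 660 CPM. GATA3, the master factor of luminal cells, stood at 201 and 57.2 CPM in HCC1806 and at 297 and 470 CPM in ZR-75-30, and the difference did not pass the test (adjusted p = 0.141). GRHL2, an epithelial factor picked with its values in view, overlapped between the lines (63.1 and 199.7 CPM in HCC1806, 195 and 106 CPM in ZR-75-30, adjusted p = 0.845).

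Oestrogen-response genes, the transcripts that oestrogen is known to raise in breast cells, gave 14 lower, 1 higher and 11 not called of 26 tested, with a median of -2.61. TFF1, the classical target, had 0.0775 and 0 CPM in HCC1806 against 40.7 and 352 CPM in ZR-75-30 (ratio 0.000206, 95% interval 2.49e-05 to 0.000744). AGR3, a secretory-pathway disulphide isomerase relative, had 0 and 0.0539 CPM in HCC1806 against 32.2 and 98.3 CPM in ZR-75-30 (ratio 0.000563, 95% interval 6.82e-05 to 0.00204), and DNALI1, an axonemal dynein chain, 0 counts in HCC1806 against 27.1 and 27.7 CPM in ZR-75-30 (at least 573-fold lower). GREB1, a co-regulator of the oestrogen receptor, stood at 0.427 and 0.377 CPM in HCC1806 against 134 and 32.3 CPM in ZR-75-30 (-7.69 ± 0.90, adjusted p = 0.00306), and was picked out after its values were seen. CCND1, the cyclin that starts the cell cycle, overlapped between the lines (295 and 525 CPM in HCC1806, 826 and 428 CPM in ZR-75-30). The gene that went the other way was STC2, a secreted glycoprotein (371 and 58.5 CPM in HCC1806, 4.82 and 16.6 CPM in ZR-75-30, adjusted p = 0.0252), and it was lost without ZR-75-30 replicate 1 (0.141) or replicate 2 (0.0725). The higher count was 0 without either ZR-75-30 library and 2 without either HCC1806 library.

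Apocrine and milk-type secretory proteins split in 2 directions. Of 15 tested, 6 were lower and 4 higher in HCC1806, with a median of -2.68 (-2.41 at the bounds). Beside SCGB2A2 and SCGB1D2, SCGB2A1 (mammaglobin-B) had 0.0775 and 0 CPM in HCC1806 against 124 and 356.5 CPM in ZR-75-30, and PIP, a secreted protein of apocrine cells, 0 counts in HCC1806 against 11.5 and 23.0 CPM in ZR-75-30 (at least 330-fold lower). The 6 lower calls held without each library. LCN2, an iron-siderophore binding lipocalin, stood at 1118 and 1.40 CPM in HCC1806 against 0.106 and 0.0917 CPM in ZR-75-30, SLPI, a leukocyte protease inhibitor, at 466 and 6.63 CPM in HCC1806 against 0.159 and 0.550 CPM in ZR-75-30, and WFDC2, of the same inhibitor family, at 130 and 3.99 CPM in HCC1806 against 0 in ZR-75-30. At these 3 genes replicate 1 of HCC1806, the library of high mitochondrial share, was far above replicate 2. With XDH they made up the 4 higher calls, of which 0 remained without ZR-75-30 replicate 1 and 0 without replicate 2. Their adjusted p was 0.0718 to 0.193 without replicate 1 and 0.0734 to 0.184 without replicate 2, and LCN2 was also lost without BT474 replicate 1 (0.0511) or 2 (0.0514). The casein genes CSN1S1, CSN2 and CSN3 and LALBA had 0 counts in all 4 libraries.

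ERBB2 (chromosome 17, 39687914 to 39730426) was lower in HCC1806 with close replicates in both lines: 112 and 119 CPM in HCC1806 against 8591 and 8621 CPM in ZR-75-30 (-6.22 ± 0.54, adjusted p = 0.00142). Of 18 genes listed for its amplicon, 8 were lower, 0 higher and 10 not called, with a median of -2.52. GRB7, an adaptor that binds ERBB2, stood at 24.5 and 16.5 CPM in HCC1806 against 535 and 776 CPM in ZR-75-30 (-5.00 ± 0.47, adjusted p = 0.00183), and PGAP3, which remodels lipid anchors, at 33.4 and 13.9 CPM in HCC1806 against 1162 and 1483 CPM in ZR-75-30 (-5.81 ± 0.58, adjusted p = 0.00208). IKZF3, a lymphoid zinc finger factor, had 0 counts in HCC1806 against 10.5 and 14.2 CPM in ZR-75-30 (at least 248-fold lower), and PPP1R1B, a phosphatase inhibitor, 0 counts against 124 and 109 CPM in ZR-75-30 (at least 2480-fold lower).

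Along chromosome 17 most lower genes near ERBB2 fell in 2 runs with a gap between them, positions being starts relative to the ERBB2 start. A few more, such as the mitochondrial ribosomal protein gene MRPL45, lay farther out, before MLLT6. From PPP1R1B at -61 kb to IKZF3 at 70 kb, 8 of 9 tested genes were lower, the exception being PNMT (0 and 0.0270 CPM in HCC1806, 0.371 and 0.734 CPM in ZR-75-30, adjusted p = 0.0521). The other run went from MLLT6 at -982 kb to LASP1 at -818 kb, where 7 of 8 were lower. In it the proteasome subunit gene PSMB3 stood at 212 and 170 CPM in HCC1806 against 2211 and 4119 CPM in ZR-75-30 (-4.05 ± 0.50, adjusted p = 0.00319), and the lipid kinase gene PIP4K2B at 60.5 and 79.1 CPM in HCC1806 against 1470 and 1003 CPM in ZR-75-30 (-4.15 ± 0.43, adjusted p = 0.00216). The gene not called there was RPL23 (1805 and 409 CPM in HCC1806, 2941 and 9095 CPM in ZR-75-30, adjusted p = 0.0753). Of the 8 genes between the runs 1 was lower, 1 higher and 6 not called, among them MED1 (32.5 and 104 CPM in HCC1806, 40.6 and 21.8 CPM in ZR-75-30) and CDK12 (37.6 and 158 CPM in HCC1806, 55.2 and 26.0 CPM in ZR-75-30). Of the 22 genes after IKZF3, 1 was lower, 2 higher and 19 not called. DNA copy number was not measured, and the genes of these runs were picked out after their values were seen.

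In the CAL148 against BT474 pair, the other triple-negative and ERBB2-positive pair, the lower run was wider. ERBB2 differed by -4.39, STARD3 by -4.40 and GRB7 by -3.78 on the log2 scale, and so did genes that were not called between HCC1806 and ZR-75-30: MED1 by -3.60, FBXL20 by -3.19, PSMD3 by -4.18 and MED24 by -3.88. These genes were picked with their values in view. PPP1R1B was called higher in CAL148 than in BT474 (6.61 on the log2 scale), opposite to its direction in HCC1806 against ZR-75-30.

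**Figure D2:**
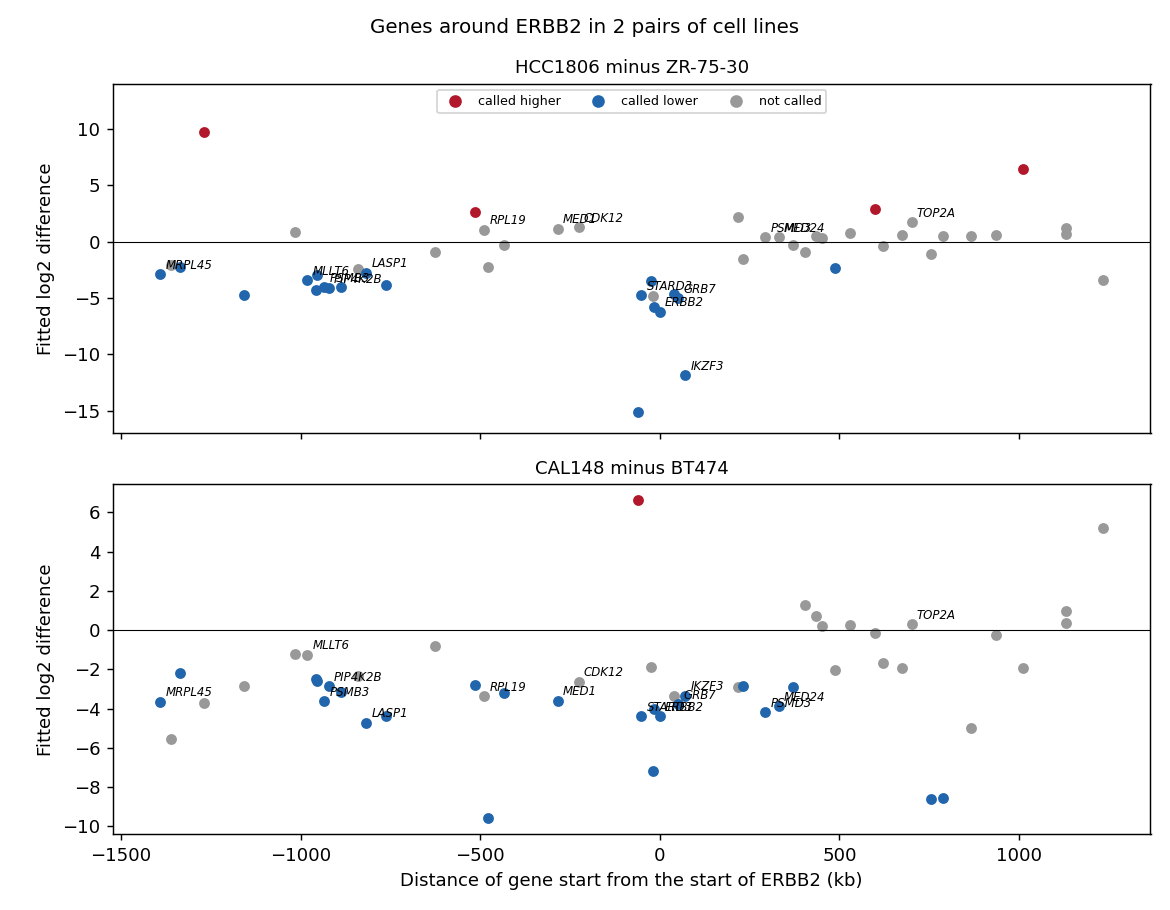
Fitted log2 difference of genes within 1500 kb of the ERBB2 start, by distance of their start in kb, for HCC1806 minus ZR-75-30 (top) and CAL148 minus BT474 (bottom). Red points are genes called higher, blue points called lower and grey points not called. In the top panel lower genes gather between -982 and -818 kb and between -61 and 70 kb, and most of those between the runs, such as MED1 and CDK12, are not called; fitted values of genes with 0 counts in 1 line (PPP1R1B, IKZF3) are not bounds.

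The receptors of the EGF family went in opposite directions. EGFR stood at 185 and 374 CPM in HCC1806 against 0.371 and 0.367 CPM in ZR-75-30 (9.55 ± 0.57, adjusted p = 0.0011), so it was higher in the line in which ERBB2 was lower. ERBB3, the partner of ERBB2 with little kinase activity of its own, stood at 117 and 83.5 CPM in HCC1806 against 504 and 485 CPM in ZR-75-30 (-2.30 ± 0.35, adjusted p = 0.00568, but 0.0537 in the fit of the 4 libraries alone). ERBB4 stayed under 1 CPM in all 4 libraries. Of the 17 receptors, ligands and regulators tested, 6 were higher, 4 lower and 7 not called. Among ligands HBEGF stood at 53.4 and 10.5 CPM in HCC1806 against 0.318 and 0.0917 CPM in ZR-75-30 (7.19 ± 1.07, adjusted p = 0.00568), while EREG (12.7 and 36.5 CPM in HCC1806, 0.212 and 0 CPM in ZR-75-30) lost its call without ZR-75-30 replicate 2 (0.0539) and NRG1, an ERBB3 ligand (18.0 and 132 CPM in HCC1806, 0 in ZR-75-30), without replicate 1 (0.072) or 2 (0.0639). LRIG1, which removes receptors of this family from the surface, stood at 5.58 and 0.889 CPM in HCC1806 against 144 and 64.2 CPM in ZR-75-30 (-5.02 ± 0.89, adjusted p = 0.01). The ligand EGF itself was lower (5.93 and 12.4 CPM in HCC1806, 108 and 50.8 CPM in ZR-75-30, adjusted p = 0.0107), lost without ZR-75-30 replicate 1 (0.062). The higher count was 3 without ZR-75-30 replicate 1 and 2 without replicate 2.

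Of 15 basal and squamous keratins tested, 6 had 0 counts in 1 of the lines and could come out in 1 direction only. Of the 15, 6 were higher, 0 lower and 9 not called, with a median of 7.88 (4.04 at the bounds). Then 10 were called higher without HCC1806 replicate 2, and 1 lower without its replicate 1. KRT17, a basal and stress keratin, stood at 1506 and 92.8 CPM in HCC1806 against 0 and 0.184 CPM in ZR-75-30 (13.34 ± 2.07, adjusted p = 0.00881) and was lost without ZR-75-30 replicate 1 (0.0634). KRT4, picked with its values in view, overlapped between the lines (523 and 67.5 CPM in HCC1806, 263 and 174 CPM in ZR-75-30). The luminal keratin partners KRT8 (662 and 773 CPM in HCC1806, 1907 and 2870 CPM in ZR-75-30, adjusted p = 0.0509) and KRT18 (804 and 354 CPM in HCC1806, 934 and 1962 CPM in ZR-75-30, adjusted p = 0.126) were not called, and no keratin of the luminal list was. The 12 luminal keratins and simple epithelial genes gave 1 higher, 3 lower and 8 not called, with a median of -1.53, and 1 lower without ZR-75-30 replicate 2, 5 without HCC1806 replicate 1 and 5 lower with 3 higher without its replicate 2. The lower genes were the tight junction claudins CLDN4 and CLDN3 and the mucin gene MUC1. CLDN4 stood at 175 and 183 CPM in HCC1806 against 1041 and 1560 CPM in ZR-75-30 (-2.86 ± 0.39, adjusted p = 0.00426) and held without each library. CLDN3 was lost without ZR-75-30 replicate 1 (0.0507) or 2 (0.0672), and MUC1 without replicate 2 (0.0761). The gene called higher was CDH1, described with the adhesion genes.

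Basal cell genes lay on the HCC1806 side: of 27 tested, 18 were higher, 1 lower and 8 not called, with a median of 4.93. Without ZR-75-30 replicate 1 and replicate 2 the higher count was 8 and 9 and the lower count 0. Beside CAV1 and TP63, those that held without each library include FOXC1, a forkhead factor of basal-like tumours (80.9 and 72.3 CPM in HCC1806, 0.106 and 0.0917 CPM in ZR-75-30, 9.53 ± 1.23, adjusted p = 0.00376), and LAMB3, a laminin-332 chain (879 and 972 CPM in HCC1806, 7.31 and 17.2 CPM in ZR-75-30, 6.24 ± 0.59, adjusted p = 0.0019), both picked out after their values were seen. SNAI2, a repressor of luminal genes, had 39.2 and 44.0 CPM in HCC1806 and 0 in ZR-75-30 (at least 834-fold higher, adjusted p = 0.0114), lost without ZR-75-30 replicate 1 (0.0632) or 2 (0.0547). CDH3 (P-cadherin) differed little in size (175 and 221 CPM in HCC1806, 74.2 and 84.7 CPM in ZR-75-30, 1.32 ± 0.33, adjusted p = 0.029) and lost its call without any library outside HCC1806 (0.066 to 0.163). SOX9, a factor of luminal progenitors that was on this list, went the other way (1.05 and 8.14 CPM in HCC1806, 128 and 97.7 CPM in ZR-75-30, -4.61 ± 1.04, adjusted p = 0.0216), lost without ZR-75-30 replicate 1 (0.0816) or 2 (0.0675). SOX10 and MIA, other basal-like markers, had under 3 counts or none in most of the 4 libraries and were not tested.

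Squamous differentiation genes were higher at 12 of 22 tested, lower at 1 and not called at 9, with a median of 4.47 (3.91 at the bounds), but 2 were called higher and 0 lower without ZR-75-30 replicate 1 or 2, and 2 were lower without HCC1806 replicate 2. DSG3, a desmosomal cadherin of stratified epithelium, had 22.9 and 29.4 CPM in HCC1806 and 0 in ZR-75-30 (at least 531-fold higher, adjusted p = 0.00413) and held without each library. CSTA, a cysteine protease inhibitor of the cornified envelope, stood at 472 and 44.6 CPM in HCC1806 against 0.106 and 0.459 CPM in ZR-75-30 (9.93 ± 1.56, adjusted p = 0.00686), lost without ZR-75-30 replicate 1 (0.0584). The late markers LOR (loricrin) and FLG (filaggrin), looked up apart from the rule, were scarce. LOR had 0.0775 CPM in HCC1806 replicate 1 and none elsewhere, and FLG 4.74 CPM in HCC1806 replicate 2 and none elsewhere. They do not stand for the whole list, in which 12 genes were higher and 1 lower. CALML5, picked with its values in view, was called higher (45.1 and 148 CPM in HCC1806, 5.70 and 13.8 CPM in ZR-75-30, adjusted p = 0.047).

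Serpins and kallikrein-related peptidases, protease inhibitors and proteases of squamous epithelium, were higher at 13 of 19 tested and lower at 1, with a median of 8.25 (7.07 at the bounds). Of the 19, 9 had 0 counts in 1 of the lines and could come out in 1 direction only. The higher count was 4 without ZR-75-30 replicate 1 and 6 without replicate 2. KLK10 stood at 54.2 and 180 CPM in HCC1806 and KLK11 at 45.2 and 37.0 CPM in HCC1806, both at 0 in ZR-75-30 (at least 2540-fold and 801-fold higher, adjusted p = 0.00651 and 0.00409). Both held without each library, and by the rule for calls each HCC1806 library was above each ZR-75-30 library. SERPINA1 (alpha-1 antitrypsin), an oestrogen-raised liver-type inhibitor, went the other way (0.0775 and 0 CPM in HCC1806, 20.9 and 15.2 CPM in ZR-75-30, ratio 0.00169, 95% interval 0.000205 to 0.00613, adjusted p = 0.00273).

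**Figure D3:**
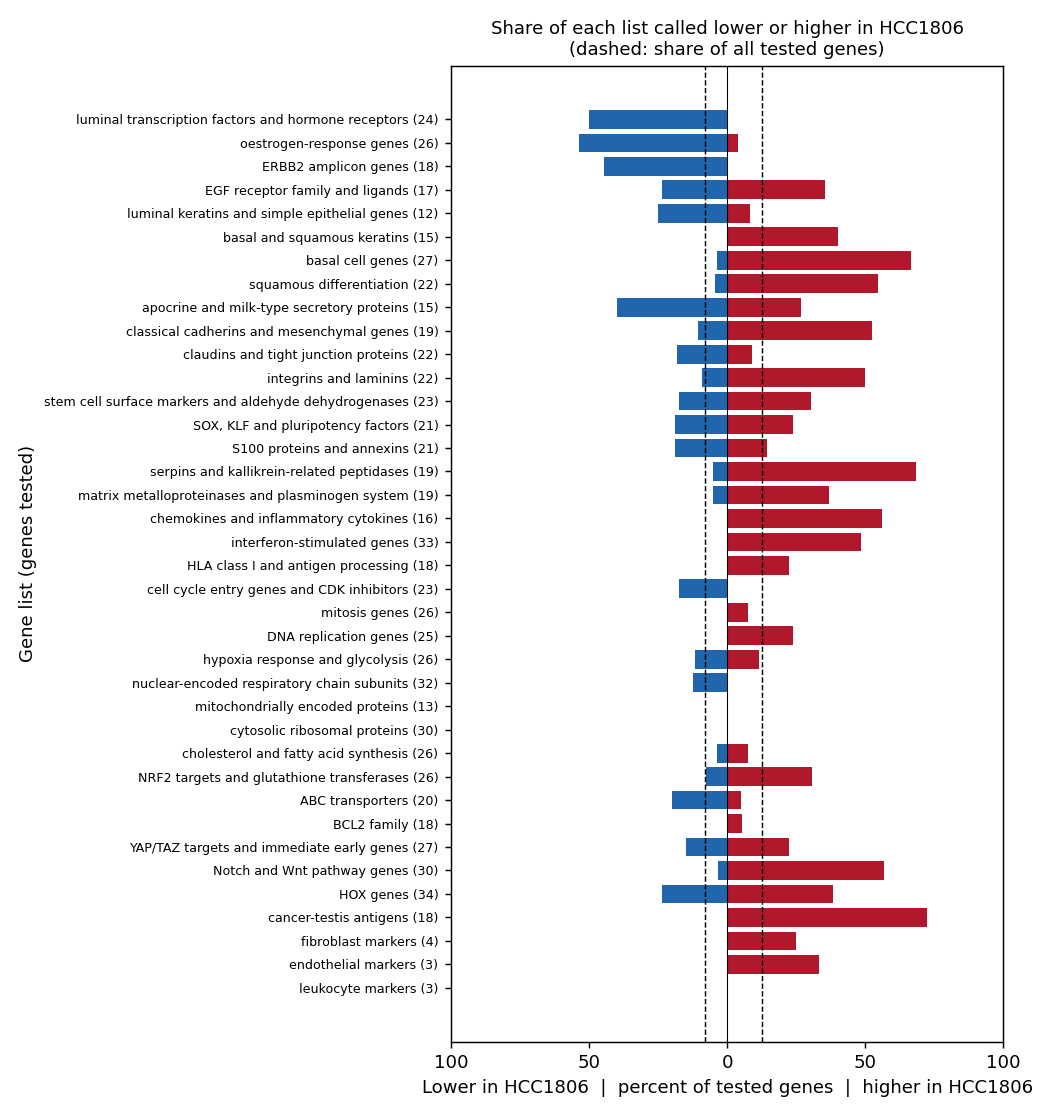
Percent of the tested genes of each of the 38 lists called higher (red, right) or lower (blue, left) in HCC1806 than in ZR-75-30, with the number of genes tested in parentheses. Dashed lines mark the share of all 19594 tested genes called higher (12.5%) and lower (8.04%). Of the basal cell genes 18 of 27 lie to the right, and of the luminal factors 12 of 24 and of the ERBB2 amplicon genes 8 of 18 to the left.

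Cadherins and mesenchymal genes mostly lay on the HCC1806 side. CDH1 (E-cadherin; chromosome 16, 68737225 to 68835548), the main adhesion molecule of epithelia, was higher in HCC1806, at 131 and 253 CPM against 7.95 and 9.17 CPM in ZR-75-30 (4.49 ± 0.45, adjusted p = 0.00208). VIM (vimentin), a mesenchymal intermediate filament, had 0.116 and 0.108 CPM in HCC1806 against 0.0530 and 0 CPM in ZR-75-30, under 1 CPM in every library. Of 19 classical cadherins and mesenchymal genes tested, 10 were higher, 2 lower and 7 not called, with a median of 5.65 (3.21 at the bounds), and there were 5 higher and 1 lower without ZR-75-30 replicate 1 and 5 higher and 0 lower without replicate 2. Of these 19 genes, 8 had 0 counts in at least 1 of the lines and could come out in at most 1 direction. COL6A1 (93.6 and 63.5 CPM in HCC1806, at least 1510-fold higher, adjusted p = 0.00113) and COL6A2 (171 and 39.4 CPM in HCC1806, at least 1860-fold higher, adjusted p = 0.00255), chains of collagen VI, were at 0 in ZR-75-30. MSN (moesin), which links actin to the membrane, stood at 95.1 and 614 CPM in HCC1806 against 0.0530 and 0.275 CPM in ZR-75-30 (11.21 ± 1.29, adjusted p = 0.00294). ZEB1, SPARC and COL1A2, further mesenchymal genes, were too low in these libraries to be tested. TNC, a matrix glycoprotein, was lower (2.02 and 0.566 CPM in HCC1806, 74.5 and 32.3 CPM in ZR-75-30, adjusted p = 0.0259), lost without HCC1806 replicate 2 (0.0525) or ZR-75-30 replicate 1 (0.103) or 2 (0.0631).

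Integrins and laminins, the receptors and ligands of the basement membrane, were higher at 11 of 22 tested and lower at 2, with a median of 2.13, and 3 and 4 were higher, with 1 lower each, without ZR-75-30 replicates 1 and 2. ITGB4, the integrin of hemidesmosomes, stood at 1040 and 1588 CPM in HCC1806 against 96.3 and 105 CPM in ZR-75-30 (3.70 ± 0.49, adjusted p = 0.00391), and LAMA5 at 752 and 740 CPM in HCC1806 against 98.4 and 74.3 CPM in ZR-75-30 (3.11 ± 0.36, adjusted p = 0.00283). Both were picked out after their values were seen, because they held without each library. LAMB2, a laminin chain of other basement membranes, was lower (66.6 and 65.4 CPM in HCC1806, 501 and 534 CPM in ZR-75-30, -2.97 ± 0.37, adjusted p = 0.00319). Claudins and tight junction proteins gave 2 higher, 4 lower and 16 not called of 22 (12.5% higher and 8.04% lower over all genes), with a median of -0.37. CLDN8 was higher (7.99 and 11.1 CPM in HCC1806, 0.212 and 0 CPM in ZR-75-30, 6.28 ± 1.14, adjusted p = 0.0109), and there were 1 higher and 2 lower without ZR-75-30 replicate 1, 1 and 1 without replicate 2, and 6 higher without HCC1806 replicate 2.

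Matrix metalloproteinases and the plasminogen system were higher at 7 of 19 tested and lower at 1, with a median of 2.32, and there were 3 higher without ZR-75-30 replicate 1, 4 without each of the other libraries outside HCC1806, and 0 lower in each of these. MMP14, a membrane-anchored collagenase, stood at 242 and 268 CPM in HCC1806 against 0.106 and 0.642 CPM in ZR-75-30 (9.51 ± 0.97, adjusted p = 0.00216). PLAU (urokinase) had 40.4 and 31.1 CPM in HCC1806 and 0 in ZR-75-30 (at least 693-fold higher, adjusted p = 0.00294), and PLAT, the tissue-type activator, 20.3 and 34.0 CPM in HCC1806 against 0.0530 and 0 CPM in ZR-75-30 (ratio 844, 95% interval 233 to 6980). These 3 held without each library, with both HCC1806 libraries close to each other. S100 proteins and annexins gave 3 higher and 4 lower of 21 (12.5% higher and 8.04% lower over all genes), with a median of -1.08. S100A2, a p63-linked calcium binder, was higher (379 and 456 CPM in HCC1806, 1.01 and 5.78 CPM in ZR-75-30, 6.96 ± 1.02, adjusted p = 0.00549) and ANXA6 lower (17.4 and 12.02 CPM in HCC1806, 530 and 411 CPM in ZR-75-30, -5.00 ± 0.58, adjusted p = 0.00299). The lower count of that list was 7 without HCC1806 replicate 1 or CAL148 replicate 1 and 2 without ZR-75-30 replicate 2, and the higher count 5 without HCC1806 replicate 2.

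Markers used to sort breast cancer stem cells differed in both directions. CD44, the hyaluronan receptor, stood at 375 and 1178 CPM in HCC1806 against 99.4 and 47.6 CPM in ZR-75-30 (3.4 ± 0.73, adjusted p = 0.019), and CD24, a mucin-like surface protein, at 232 and 153 CPM in HCC1806 against 2035 and 2403 CPM in ZR-75-30 (-3.53 ± 0.47, adjusted p = 0.00391). CD24 held without each library and CD44 was lost without ZR-75-30 replicate 1 (0.0746) or 2 (0.123). PROM1 (CD133) was lower as well, at 0.233 and 0 CPM in HCC1806 against 211 and 161 CPM in ZR-75-30 (-10.78 ± 1.38, adjusted p = 0.00361). Among aldehyde dehydrogenases ALDH3A1 was higher (77.5 and 76.1 CPM in HCC1806, 0.133 and 1.10 CPM in ZR-75-30, 7.02 ± 1.15, adjusted p = 0.0102) and ALDH3B2 lower (0.427 and 0.539 CPM in HCC1806, 295 and 305 CPM in ZR-75-30, -9.26 ± 0.48, adjusted p = 0.00106). ALDH1A3 (38.0 and 143 CPM in HCC1806, 16.2 and 4.31 CPM in ZR-75-30, 3.14 ± 0.82, adjusted p = 0.0342) was lost without each library except HCC1806 replicate 1 (0.0589 to 0.149), and ALDH1A1 overlapped (47.5 and 12.1 CPM in HCC1806, 1.62 and 18.2 CPM in ZR-75-30). Of the 23 tested, 7 were higher, 4 lower and 12 not called, with a median of 1.30, and 2 were higher without ZR-75-30 replicate 1 and 2 without replicate 2.

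Of 21 SOX, KLF and pluripotency factors 5 were higher, 4 lower and 12 not called, with a median of -0.56. SOX15, a SOX factor of muscle and squamous cells, stood at 319 and 130 CPM in HCC1806 against 0.768 and 0.413 CPM in ZR-75-30 (8.53 ± 0.85, adjusted p = 0.00208), and SALL4, an embryonic zinc finger factor, had 13.96 and 37.5 CPM in HCC1806 and 0 in ZR-75-30 (at least 553-fold higher, adjusted p = 0.00573). SOX4 was lower (13.8 and 12.7 CPM in HCC1806, 98.8 and 61.8 CPM in ZR-75-30, -2.60 ± 0.38, adjusted p = 0.0051). Without ZR-75-30 replicate 1 or replicate 2 the list gave 3 higher and 2 lower, and without BT474 replicate 1 or 2 it gave 2 lower. The embryonic factor NANOG had 0 counts in all 4 libraries.

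**Figure D4:**
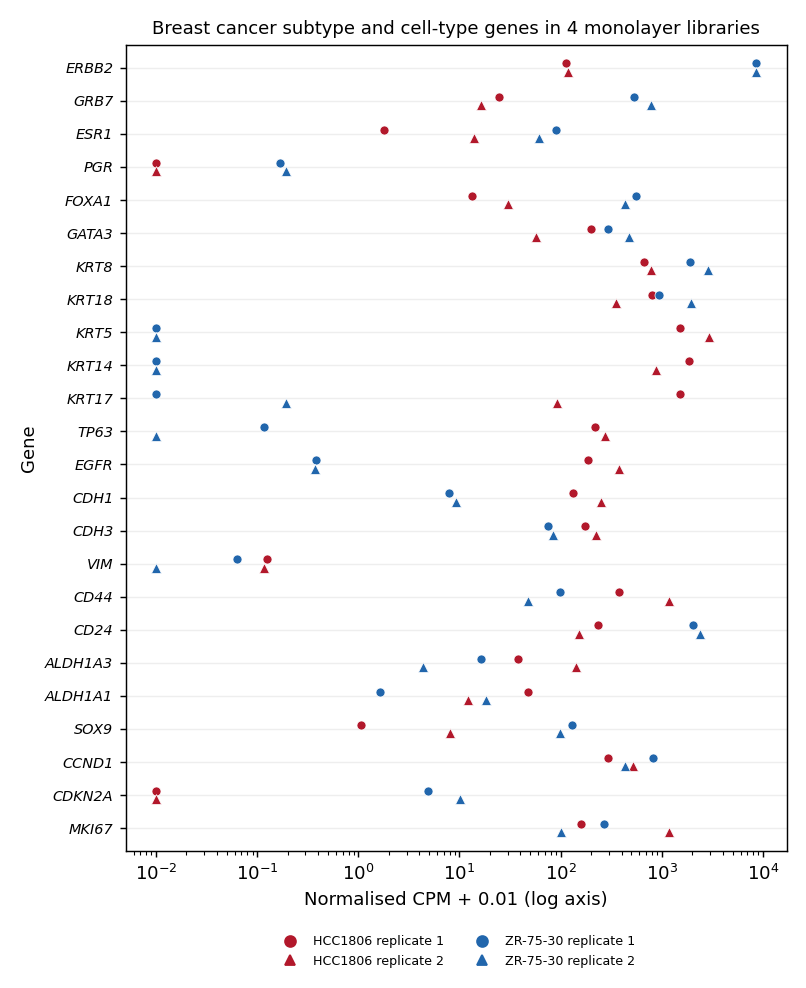
Normalised CPM (plus 0.01, log axis) of 24 subtype and cell-type genes in the 4 libraries, HCC1806 in red and ZR-75-30 in blue, circles for replicate 1 and triangles for replicate 2. ERBB2 lies at 112 and 119 CPM in HCC1806 and 8591 and 8621 CPM in ZR-75-30, CDH1 at 131 and 253 CPM in HCC1806 and 7.95 and 9.17 CPM in ZR-75-30, and MKI67 and CCND1 overlap between the lines.

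Interferon-stimulated genes were higher at 16 of 33 tested and lower at 0, with a median of 5.76, and the 2 HCC1806 libraries were far apart. The summed level of the list was 16070 and 1801 CPM in HCC1806 against 578 and 538 CPM in ZR-75-30, and replicate 1 exceeded replicate 2 at 32 of the 33 genes, at a median ratio of 9.80. The median log2 difference was 6.67 between the libraries of high mitochondrial share and 1.39 between those of low share. IFI27 shows the range: it stood at 2011 and 0.862 CPM in HCC1806 against 0.106 and 0.229 CPM in ZR-75-30 (adjusted p = 0.0359), and lost its call without any 1 library except HCC1806 replicate 2 (0.0511 to 0.251). With HCC1806 replicate 2 left out the list gave 30 higher calls, with HCC1806 replicate 1 left out 13 higher and 2 lower, and with ZR-75-30 replicate 1 or 2 left out 4 higher.

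The 4 interferon-stimulated genes that held without each library were picked out after their values were seen. SAMD9, an antiviral protein, was the least divergent (79.6 and 122 CPM in HCC1806, 0.212 and 0.184 CPM in ZR-75-30, 8.96 ± 0.72, adjusted p = 0.00125). OAS3, which senses double-stranded RNA, stood at 656 and 330 CPM in HCC1806 against 14.6 and 3.49 CPM in ZR-75-30 (5.76 ± 0.81, adjusted p = 0.0048). MX2 (192.5 and 53.5 CPM in HCC1806, 1.72 and 1.19 CPM in ZR-75-30) and IFI44 (145 and 25.3 CPM in HCC1806, 0.265 and 0.0917 CPM in ZR-75-30) completed them. The part of the mitochondrial share in these differences was not tested.

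Class I antigen processing genes were higher at 4 of 18 tested and lower at 0, with a median of 1.76. TAP1 (63.0 and 53.8 CPM in HCC1806, 3.15 and 3.90 CPM in ZR-75-30, 4.05 ± 0.40, adjusted p = 0.00191) and TAP2 (89.1 and 50.7 CPM in HCC1806, 2.60 and 4.63 CPM in ZR-75-30, 4.28 ± 0.53, adjusted p = 0.00326), the peptide transporter of the endoplasmic reticulum, held without each library. PSMB9, an immunoproteasome subunit (171 and 8.44 CPM in HCC1806, 0 and 0.184 CPM in ZR-75-30, adjusted p = 0.0137), was lost without ZR-75-30 replicate 1 (0.0883) or 2 (0.0586). The list gave 11 higher calls without HCC1806 replicate 2 and 2 without ZR-75-30 replicate 1 or 2, and 2 lower without HCC1806 replicate 1. The HLA genes may share reads with each other.

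Chemokines and inflammatory cytokines were higher at 9 of 16 tested and lower at 0, with a median of 4.69 (4.37 at the bounds). IL1A, an alarmin of squamous cells, had 17.02 and 18.7 CPM in HCC1806 and 0 in ZR-75-30 (at least 358-fold higher, adjusted p = 0.00546) and held without each library. IL1B (6.55 and 8.03 CPM in HCC1806, 0 in ZR-75-30, at least 147-fold higher, adjusted p = 0.0113) was lost without ZR-75-30 replicate 1 (0.056). The count was 1 without ZR-75-30 replicate 1 and 2 without replicate 2, 4 without either BT474 library, and 5 without HCC1806 replicate 1 or either CAL148 library.

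Mitosis genes overlapped between the lines at 20 of 26 members, while the 4 cross pairs had 1 direction at 53.3% of all genes tested. Of the 26, 2 were higher, 0 lower and 24 not called, with a median of 0.93. Over all genes tested 12.5% were higher and 8.04% lower. Their summed level was 1230 and 6567 CPM in HCC1806 and 2449 and 1218 CPM in ZR-75-30, lower in HCC1806 replicate 1 than in replicate 2 at 25 of the 26 genes and higher in ZR-75-30 replicate 1 than in replicate 2 at 22. In both lines the library of high mitochondrial share was the lower one, and the part of that share was not tested. MKI67, the Ki-67 antigen, stood at 160.5 and 1188 CPM in HCC1806 and 267 and 102 CPM in ZR-75-30 (1.87 ± 1.03, adjusted p = 0.236). AURKB, the kinase of the chromosomal passenger complex (130 and 194 CPM in HCC1806, 18.8 and 22.01 CPM in ZR-75-30, adjusted p = 0.0133), and NDC80, of the outer kinetochore (43.0 and 84.6 CPM in HCC1806, 17.5 and 8.49 CPM in ZR-75-30, adjusted p = 0.0396), were the genes called. Neither held without ZR-75-30 replicate 1 or 2 (0.0974 and 0.0809 for AURKB, 0.0969 and 0.199 for NDC80), and NDC80 was also lost without HCC1806 replicate 2 (0.0826) or BT474 replicate 1 (0.0786) or 2 (0.0792). The list gave 8 higher calls without HCC1806 replicate 1, 1 higher and 3 lower without its replicate 2, 1 higher without BT474 replicate 1 or 2, and 0 without ZR-75-30 replicate 1 or 2.

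**Figure D5:**
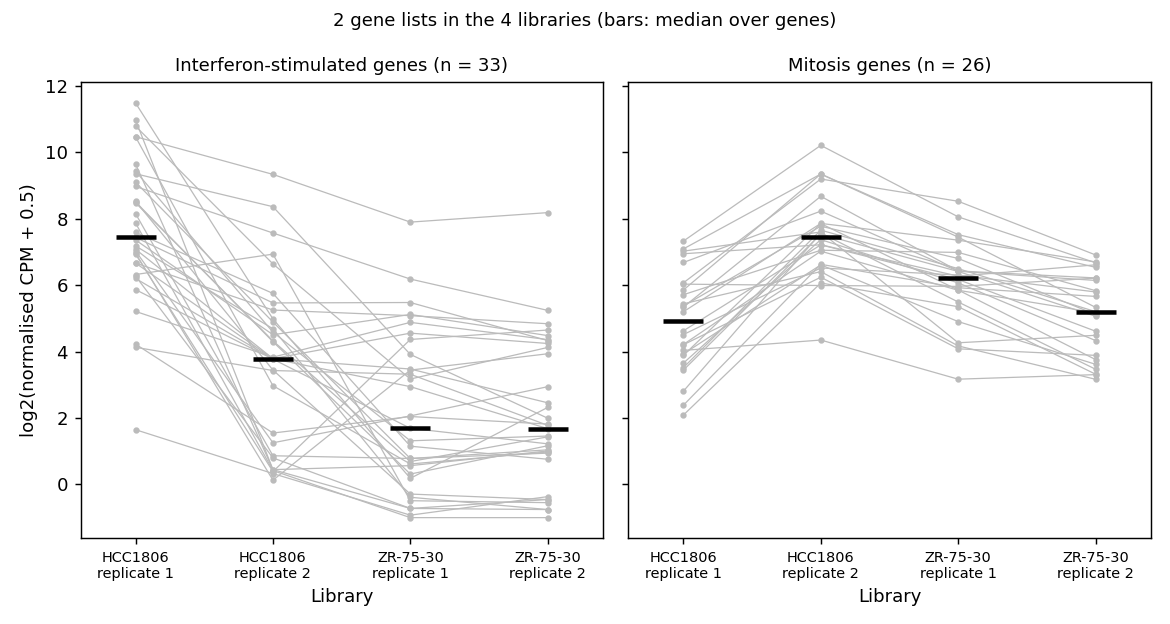
log2(normalised CPM + 0.5) of 33 interferon-stimulated genes (left) and 26 mitosis genes (right) in the 4 libraries, 1 grey line per gene and a black bar at the median of the genes. Interferon-stimulated genes stand highest in HCC1806 replicate 1, where their summed level is 16070 CPM against 1801 CPM in replicate 2, and mitosis genes highest in HCC1806 replicate 2, with 6567 CPM.

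DNA replication genes were higher at 6 of 25 tested and lower at 0, with a median of 1.19. TK1, the thymidine kinase of S phase, stood at 365 and 542 CPM in HCC1806 against 63.9 and 62.9 CPM in ZR-75-30 (2.84 ± 0.35, adjusted p = 0.00319), and CDT1, a licensing factor, at 142 and 140 CPM in HCC1806 against 25.7 and 31.7 CPM in ZR-75-30 (2.30 ± 0.32, adjusted p = 0.00443). Both held without each library. The list gave 12 higher calls without HCC1806 replicate 1, 3 without BT474 replicate 2 and 2 without ZR-75-30 replicate 1 or 2, and 1 lower call without HCC1806 replicate 2.

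Cell cycle entry genes and CDK inhibitors gave 0 higher and 4 lower of 23, with a median of 0.14. CDKN2A (chromosome 9, 21967753 to 21995301) and CDKN2B, neighbouring inhibitors of CDK4 and CDK6, had 0 counts in both HCC1806 libraries against 4.82 and 10.2 CPM and 8.32 and 4.59 CPM in ZR-75-30 (at least 142-fold and 146-fold lower, adjusted p = 0.00315 and 0.00361). CDKN2A also had 0 counts in the 4 HCC1806 spheroid libraries. MTAP, the next gene along, stood at 16.98 and 26.8 CPM in HCC1806 and at 29.5 and 22.8 CPM in ZR-75-30 (adjusted p = 0.706), and was looked up after the values of its neighbours were seen. CDKN1A (p21) was lower (96.0 and 45.9 CPM in HCC1806, 190 and 422 CPM in ZR-75-30, -2.11 ± 0.52, adjusted p = 0.0286), but lost without ZR-75-30 replicate 2 (0.136), BT474 replicate 1 (0.0575) or 2 (0.0575) and CAL148 replicate 1 (0.0549) or 2 (0.0551). The lower count was 2 without ZR-75-30 replicate 2 or any BT474 or CAL148 library, and 3 and 1 were higher without HCC1806 replicates 1 and 2.

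Hypoxia response and glycolysis gave 3 higher and 3 lower of 26, close to the shares over all genes (12.5% higher and 8.04% lower), with a median of -0.08 (8 lower without HCC1806 replicate 2 and 5 higher without either HCC1806 library). SLC16A3, the lactate exporter MCT4, stood at 133 and 193 CPM in HCC1806 against 0.424 and 0.138 CPM in ZR-75-30 (9.09 ± 0.89, adjusted p = 0.00201), and LDHB, a lactate dehydrogenase subunit, at 21.1 and 10.1 CPM in HCC1806 against 0.0795 and 0.184 CPM in ZR-75-30 (6.92 ± 0.91, adjusted p = 0.00528). EGLN3, a prolyl hydroxylase that tags HIF, was lower (2.83 and 2.56 CPM in HCC1806, 50.1 and 94.0 CPM in ZR-75-30, -4.74 ± 0.76, adjusted p = 0.00721), as was the mitophagy receptor BNIP3 (26.3 and 19.7 CPM in HCC1806, 125 and 160 CPM in ZR-75-30, -2.63 ± 0.34, adjusted p = 0.00371). Nuclear-encoded respiratory chain subunits gave 0 higher and 4 lower of 32, with a median of -0.38, and SDHC was the one that held without each library (69.6 and 88.4 CPM in HCC1806, 280.5 and 352 CPM in ZR-75-30, -2.00 ± 0.35, adjusted p = 0.00895, but 0.0665 in the fit of the 4 libraries alone). That lower count was 8 without HCC1806 replicate 1, 2 without any BT474 or CAL148 library and 1 without ZR-75-30 replicate 2, and 1 gene was higher without HCC1806 replicate 1.

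For the lists of this paragraph the shares over all genes were 12.5% called higher and 8.04% called lower. The 13 mitochondrially encoded proteins and the 30 cytosolic ribosomal proteins gave 0 calls in either direction by edgeR, with medians of -0.73 and -0.01. Their summed levels were far apart between the libraries of 1 line: 187700 and 5453 CPM in HCC1806 and 16910 and 260500 CPM in ZR-75-30 for the mitochondrial genes, and 90170 and 24070 CPM in HCC1806 and 32100 and 71890 CPM in ZR-75-30 for the ribosomal genes. Without HCC1806 replicate 1, 6 and 9 of them were called lower, and without its replicate 2, 0 and 4 higher. Cholesterol and fatty acid synthesis gave 2 higher and 1 lower of 26, with a median of -0.26 (11 lower without HCC1806 replicate 2, 1 higher and 0 lower without ZR-75-30 replicate 1): FADS1, a fatty acid desaturase, was higher (58.7 and 67.1 CPM in HCC1806, 1.33 and 0.917 CPM in ZR-75-30, 5.79 ± 0.45, adjusted p = 0.00113). The BCL2 family gave 1 call of 18, PMAIP1 (NOXA), a promoter of cell death (7.95 and 9.46 CPM in HCC1806, 0.106 and 0.184 CPM in ZR-75-30, 5.92 ± 0.80, adjusted p = 0.00415), with a median of -0.07 and 2 lower without HCC1806 replicate 1.

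NRF2 targets and glutathione transferases were higher at 8 of 26 tested and lower at 2, with a median of 0.73, and there were 5 higher without ZR-75-30 replicate 1, 1 lower without its replicate 2 and 6 lower without HCC1806 replicate 2. The aldo-keto reductases led the list: AKR1C1 had 136 and 291 CPM in HCC1806 and 0 in ZR-75-30 (at least 4510-fold higher, adjusted p = 0.00297), AKR1C3 262 and 214 CPM in HCC1806 against 0.212 and 0.459 CPM in ZR-75-30 (9.51 ± 1.20, adjusted p = 0.00343), and AKR1B1 77.5 and 183 CPM in HCC1806 against 0.742 and 0.459 CPM in ZR-75-30 (7.73 ± 0.70, adjusted p = 0.00176). AKR1C1, AKR1C2 and AKR1C3 are near-identical neighbours and may share reads. NQO1, the classical NRF2 target, went the other way (174 and 225 CPM in HCC1806, 634 and 815 CPM in ZR-75-30, -1.86 ± 0.35, adjusted p = 0.0121), lost without ZR-75-30 replicate 2 (0.0598), as did GSTM3 (23.5 and 28.1 CPM in HCC1806, 285 and 499 CPM in ZR-75-30, -3.92 ± 0.48, adjusted p = 0.00319). ABC transporters gave 1 higher and 4 lower of 20, with a median of -0.46: the lipid transporter ABCA12 was higher (39.0 and 31.5 CPM in HCC1806, 0.265 and 0.0917 CPM in ZR-75-30, 7.51 ± 0.74, adjusted p = 0.00204), and the lower count was 0 and 1 without ZR-75-30 replicates 1 and 2 and 7 without HCC1806 replicate 2. The higher count was 5 without HCC1806 replicate 1 and 2 without CAL148 replicate 2.

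YAP/TAZ targets and immediate early genes gave 6 higher and 4 lower of 27, with a median of -0.08. FOSL1, an AP-1 subunit, stood at 62.3 and 72.7 CPM in HCC1806 against 0.133 and 0.367 CPM in ZR-75-30 (8.13 ± 1.26, adjusted p = 0.00656; 0.0567 without ZR-75-30 replicate 1). CTGF and CYR61, the matrix-bound targets most used as YAP readouts, were lower: CTGF at 5.82 and 7.14 CPM in HCC1806 against 61.2 and 42.3 CPM in ZR-75-30 (-3.0 ± 0.72, adjusted p = 0.0319) and CYR61 at 43.0 and 36.6 CPM in HCC1806 against 230 and 199 CPM in ZR-75-30 (-2.43 ± 0.61, adjusted p = 0.0295). CTGF was lost without ZR-75-30 replicate 1 (0.146) or 2 (0.0945), and CYR61 also without HCC1806 replicate 2 (0.0579) or either BT474 library (0.0565 and 0.0567), its values without the ZR-75-30 replicates being 0.109 and 0.0877. The list gave 0 higher and 1 lower without ZR-75-30 replicate 1 and 1 higher and 0 lower without its replicate 2. The lower count was 9 without HCC1806 replicate 1 and 2 without BT474 replicate 1 or 2.

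Notch and Wnt pathway genes were higher at 17 of 30 tested and lower at 1, with a median of 2.91. WNT10A, a Wnt ligand of skin and its appendages, had 338 and 125 CPM in HCC1806 and 0 in ZR-75-30 (at least 4210-fold higher, adjusted p = 0.00319), and JAG2, a Notch ligand, 360 and 197 CPM in HCC1806 against 27.7 and 38.8 CPM in ZR-75-30 (3.07 ± 0.45, adjusted p = 0.00543). Both held without each library, and JAG2 was picked out after its values were seen. The higher count was 2 without ZR-75-30 replicate 1 and 5 without replicate 2, and the lower count 4 without HCC1806 replicate 1 and 0 without any library of the other lines.

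HOX genes, which record position along the body axis, split by cluster. Of the HOXA genes 8 of 10 tested were higher and 0 lower, and of the HOXD genes 4 of 6 higher and 0 lower. In ZR-75-30, 5 of the HOXA and 6 of the HOXD genes had 0 counts and so could not come out lower. Of the HOXC genes 0 of 9 were higher and 5 lower, and of the HOXB genes 1 was higher and 3 lower of 9. HOXA11 (20.7 and 16.98 CPM in HCC1806, 0 in ZR-75-30, at least 367-fold higher, adjusted p = 0.00377) and HOXD10 (17.1 and 14.4 CPM in HCC1806, 0 in ZR-75-30, at least 308-fold higher, adjusted p = 0.00373) were high in both HCC1806 libraries. HOXB2 stood at 35.1 and 8.89 CPM in HCC1806 against 650 and 801 CPM in ZR-75-30 (-5.05 ± 0.70, adjusted p = 0.00458), and HOXB4 at 0.233 and 0.108 CPM in HCC1806 against 116 and 169 CPM in ZR-75-30 (-9.73 ± 1.02, adjusted p = 0.00231). HOXB13 was the HOXB gene that was higher (19.2 and 3.34 CPM in HCC1806, 0 in ZR-75-30, at least 195-fold higher, adjusted p = 0.00546). In all 13 of 34 were higher and 8 lower, with a median of 0.89, and 5 were higher without ZR-75-30 replicate 1, with 5 higher and 5 lower without replicate 2.

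Cancer-testis antigens, genes silent in most adult tissues outside the germ line, were higher at 13 of 18 tested and lower at 0, with a median of 11.74 (7.93 at the bounds). The 13 called genes lie on the X chromosome and had 0 counts in ZR-75-30, as 17 of the 18 tested lie on X and 16 of the 18 had 0 counts in ZR-75-30. A gene at 0 counts in ZR-75-30 passes the filter through other lines and cannot come out lower. The tally was therefore open in 1 direction only at those 16 genes, and 18 of the 31 listed genes were tested. MAGEA4 stood at 102 and 147 CPM in HCC1806 (at least 2550-fold higher, adjusted p = 0.00294), CTAG2 at 330 and 104 CPM in HCC1806 (at least 3910-fold higher, adjusted p = 0.00497), and MAGEA3 and MAGEA6, near-identical copies that may share reads, at 62.2 and 73.3 CPM and 68.3 and 102 CPM in HCC1806. The count was 6 without ZR-75-30 replicate 1 and 7 without replicate 2.

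Fold changes were also described by chromosome window. The windows named are the extremes by the median of these same fold changes, so high counts of called genes in them follow from the ranking. Over all genes tested 12.5% were higher, 8.04% were lower and 29.4% had every cross pair higher. Over 439 windows of 5 Mb with at least 10 tested protein-coding genes, the window median ranged over -2.04 to 2.97, with 90% of windows between -1.06 and 1.48. The highest window, at 100 to 105 Mb of chromosome 11, held 12 genes, 6 of them higher and 11 with every cross pair higher, among them the inflammatory caspase gene CASP4 (190 and 80.6 CPM in HCC1806, 11.2 and 15.7 CPM in ZR-75-30, 3.33 ± 0.56, adjusted p = 0.00851). The neighbouring window at 95 to 100 Mb was also among the 5 highest (median 2.46, 5 of 10 genes higher), as were windows on chromosomes 2, 21 and 11. The lowest window, at 65 to 70 Mb of chromosome 3, held 10 genes, 7 of them lower, including LRIG1 and the melanocyte factor gene MITF (0.775 and 0.782 CPM in HCC1806, 20.2 and 11.7 CPM in ZR-75-30, -4.36 ± 0.63, adjusted p = 0.00499). The lowest also included the end of chromosome 9, 0 to 5 Mb (median -1.61, 5 of 14 genes lower). CASP4 and MITF were picked out after their values were seen, and no test was run on windows.

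CAL148 against BT474, grown in DMEM, sets another triple-negative line against another ERBB2-amplified one with no shared library, and effects of line and medium cannot be told apart. There 489 genes (2.5%) were higher and 760 (3.88%) lower in CAL148. Of the 2448 genes higher in HCC1806, 147 (6.0%; 30.1% of the CAL148 list) were also higher in CAL148, and 156 were lower in CAL148. Of the 1575 lower in HCC1806, 187 (11.9%; 24.6% of the CAL148 list) were also lower in CAL148, and 53 were higher. FMOD, TFF1, GREB1 and AGR3, named after their values were seen, were among those lower in both pairs, and the surface regulator gene FXYD5 (874 and 234 CPM in HCC1806, 0.424 and 0.459 CPM in ZR-75-30) and MSN among those higher in both.

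The direct test of the difference between both pairs passed the threshold at 2370 genes (12.1%). KRT5 had 0 counts in both CAL148 libraries and 0.181 and 0 CPM in BT474, and TP63 stood at 0.891 and 0.555 CPM in CAL148 against 3.94 and 2.19 CPM in BT474 (adjusted p of the difference between pairs 0.00814 and 0.00147). FOXA1 stood at 599 and 519 CPM in CAL148 and 450 and 416 CPM in BT474 (adjusted p of the difference 0.00596). EGFR stood at 33.3 and 33.0 CPM in CAL148 and at 30.9 and 31.5 CPM in BT474 (adjusted p of the difference 0.00136). CDH1 was lower in CAL148 than in BT474 (217 and 200 CPM in CAL148, 800 and 790 CPM in BT474, -1.93 ± 0.41), opposite to HCC1806 against ZR-75-30 (adjusted p of the difference 0.00196), and ZR-75-30 was the lowest of the 4 lines at this gene. ERBB2 (-6.22 ± 0.54 in HCC1806 against ZR-75-30, -4.39 ± 0.49 in CAL148 against BT474) and GRB7 (-5.00 ± 0.47 and -3.78 ± 0.44) were lower in both pairs, with adjusted p of the difference of 0.0935 and 0.204.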

How the data were processed

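RNA-seq of human breast cancer cell line monolayers was analysed from the deposited table of 58735 genes, which holds raw read counts and FPKM values. Per the submitters' processing notes, the authors used HISAT2 2.2.1 and featureCounts 2.0.6 on GRCh38 to make the deposited counts. The deposited FPKM values were used for levels per length and for 1 alternative, with a pseudocount of 0.1 before log2. Strand setting and treatment of multi-mapping reads are not given in the sources used here. The 8 monolayer libraries of 4 lines entered 1 edgeR 4.0.16 quasi-likelihood fit (R 4.3.3; TMM scaling; filterByExpr with a minimum count of 10 and total of 15), and p-values were adjusted over all 19594 genes kept. CPM are counts scaled to the TMM-normalised library size, over the 8 monolayer libraries, or over all 16 libraries for spheroid values.

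Calls needed an adjusted p under 0.05 and 1 direction in all 4 cross pairs. Among nonzero counts up to 20, even counts outnumbered odd ones by 1.51 to 2.04 to 1 over the libraries, so counts were also halved as an alternative. The members, the 24 panel genes and the 38 lists (875 symbols, 874 matched) were chosen with earlier results of these data known. Named genes were the 12 highest and 12 lowest by their smallest cross-pair difference (pseudocount 0.5, mean of at least 20 CPM), up to 4 called genes per list and direction, and every called gene of lists with at most 5. Genes outside this rule, uncalled ones given for context included, were picked with their values in view. The alternatives also used limma 3.58.1 and DESeq2 1.42.0, and figures Python 3.11.15 with matplotlib 3.10.9. The fit was tested on simulated data: over 18855 genes, 3% of genes changed 4-fold and 81% of genes changed 16-fold were recovered for HCC1806 against ZR-75-30, and 5 unchanged genes were called. Some genes chosen by the rule are not reported here.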

Additional observations from a re-analysis of the deposited data

Results flagged for a closer look

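For 16 of the 24 panel genes the difference of HCC1806 minus ZR-75-30 was itself different from that of CAL148 minus BT474 by a direct test in the edgeR fit, with p adjusted over all 19594 genes. Over all genes tested 2370 (12.1%) passed that test. The panel was chosen with earlier results of these data known, so its count is not an independent result. Lines and media differ together between the pairs and cannot be told apart.

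Among luminal factors and hormone receptors the adjusted p of the difference was 0.0187 for ESR1 and 0.00596 for FOXA1. Among basal genes it was 0.00814 for KRT5, 0.018 for KRT14, 0.0123 for KRT17 and 0.00147 for TP63. For the receptor gene EGFR it was 0.00136, for the cadherin genes CDH1 and CDH3 0.00196 and 0.0176.

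Among stem cell markers and aldehyde dehydrogenases it was 0.00917 for CD44, 0.0281 for CD24, 0.00742 for ALDH1A3 and 0.0201 for ALDH1A1. It was 0.0349 for SOX9, 0.00367 for CCND1 and 0.00361 for CDKN2A. CCND1 stood at 295 and 525 CPM in HCC1806, 826 and 428 CPM in ZR-75-30, 1.73 and 0.621 CPM in CAL148 and 365 and 359 CPM in BT474.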

How the results depend on the processing

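The 2448 higher and 1575 lower genes became 1253 and 525 in a fit of the 4 libraries alone, 4708 and 3490 with all 16 libraries, 1511 and 527 by limma-voom with quality weights, and 3468 and 2372 by DESeq2. The 2370 genes that differed between pairs of lines became 6305 with all 16 libraries and 4708 by DESeq2. The 295 called list members became 444 with all 16 libraries and 189 with quality weights. Leaving out 1 library at a time gave 575 to 3191 higher genes, 665 to 2598 lower genes, 708 to 4525 genes that differed between pairs and 139 to 396 list members. MKI67, at a log2 difference of 1.87, ranged over -0.23 to 2.66 with 1 library left out, the lowest without HCC1806 replicate 2 (adjusted p = 0.884). The causes were not tested. No called gene changed sign under any alternative run, and the windows past 1 in size stayed within 68 to 106, against 76.

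Replicate numbers did not pair the samples: the correlation of same-numbered deviations was -0.571 between HCC1806 and ZR-75-30 and -0.157 to 0.16 between the other groups. With a replicate block the counts were 1581 higher, 1032 lower and 1357 that differed between pairs. With the ZR-75-30 numbers crossed, an alternative chosen after seeing the data, they were 2476, 1689 and 2621.

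Each line has 2 libraries that differ in mitochondrial share, and the part of that difference in the calls was not tested. Genes without a count in a line are known only to a floor of 3 counts.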
